A study of Mus musculus with 6 samples.

Results

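Immediate early genes were followed in RNA from isolated pancreatic islets of 6 mice, 3 wild_type (replicates 1 to 3) and 3 hIAPP_Tg (replicates 4 to 6), with 1 Affymetrix array per mouse. The set was given as 32 symbols of genes known to respond within minutes to hours, all of which had at least 1 probe set annotated to that symbol alone: 32 of the 18193 genes and 55 of the 45037 probe sets on the arrays that were tested. The labels give 12 weeks as the age at islet isolation (10 to 12 in the design text), standard chow without restriction as the diet, and the same strain designation, FVB/N-Tg(Ins2-IAPP)RFHSoel/J, for both genotypes. The hIAPP_Tg mice carry a transgene for human islet amyloid polypeptide driven by an insulin promoter, which is active in beta cells, and the other mice are labelled wild type. No drug, glucose stimulus or other acute treatment is named for either genotype, and no hour of collection is stated.

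Immediate early genes are switched on by transcription factors that already sit in the resting cell, so they need no new protein synthesis. MAP kinases activate serum response factor and its ETS partners at CArG boxes, and calcium and cyclic AMP activate CREB at cyclic AMP response elements. The first products are mostly transcription factors of the AP-1, EGR and NR4A families, followed by phosphatases and RNA-decay proteins that end the response. In beta cells glucose, incretins and depolarization are known inducers, and the genes also respond to cell isolation and handling in many tissues.

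Values are given on the deposited log2 scale (RMA), and differences are hIAPP_Tg minus wild_type, so a difference of 1 would be a doubling. Each gene is represented by its brightest probe set, judged by the 6-array mean, unless another is named. The islet hormone genes that define the tissue were near the top of the scale on every array, with Ins2 at 15.1, Iapp at 14.9 or above and Gcg at 14.7 to 14.8. Of 24 macrophage markers 18 were higher in hIAPP_Tg islets at an unadjusted p under 0.05 (75%, against 5.02% of all genes), and acinar markers had a median difference of -0.97 with overlapping arrays. Their array values are given beside the module score below.

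The promoters of 25 of the 32 genes were found in the RefSeq promoter table (build GRCm38.p6), as windows from 250 bases before to 50 bases after the annotated start. Those of Fos, Jun, Dusp1, Dusp6 and Maff are shown as examples, picked with their motifs known, from the 7 genes with a window whose transcripts separated the genotypes. Fosb and Atf3, the others, hold TGACG, as do Fos, Dusp1 and Maff. Jun holds TGACNTCA without TGACG, and Dusp6 holds none of the 8 motifs searched. The window of Nr4a1 is shown because it carries the same kinds of motif while its transcript did not separate the genotypes. Each is written 5' to 3' along the gene, and Maff is shown at the 1 of its 3 starts whose window holds both an EGR element and a cyclic AMP element. Capitals mark TGACG (the core of the cyclic AMP element), TGACNTCA (the longer AP-1 or cyclic AMP form, which can contain the core) and GCGNGGGCG (the EGR element), each on either strand.
Fos (chr12:85473640-85473939, plus strand): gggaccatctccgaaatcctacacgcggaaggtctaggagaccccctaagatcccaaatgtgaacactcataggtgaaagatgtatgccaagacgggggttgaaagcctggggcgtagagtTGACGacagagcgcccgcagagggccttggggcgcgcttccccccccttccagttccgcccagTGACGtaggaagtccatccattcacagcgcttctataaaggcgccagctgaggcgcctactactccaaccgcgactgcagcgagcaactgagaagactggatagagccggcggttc
Jun (chr4:95052173-95052472, minus strand): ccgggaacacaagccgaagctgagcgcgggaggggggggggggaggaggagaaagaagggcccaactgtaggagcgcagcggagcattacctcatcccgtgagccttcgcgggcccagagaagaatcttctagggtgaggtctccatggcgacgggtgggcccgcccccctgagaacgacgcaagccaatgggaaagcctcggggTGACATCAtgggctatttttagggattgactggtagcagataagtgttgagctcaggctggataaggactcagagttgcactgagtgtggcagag
Dusp1 (chr17:26508423-26508722, minus strand): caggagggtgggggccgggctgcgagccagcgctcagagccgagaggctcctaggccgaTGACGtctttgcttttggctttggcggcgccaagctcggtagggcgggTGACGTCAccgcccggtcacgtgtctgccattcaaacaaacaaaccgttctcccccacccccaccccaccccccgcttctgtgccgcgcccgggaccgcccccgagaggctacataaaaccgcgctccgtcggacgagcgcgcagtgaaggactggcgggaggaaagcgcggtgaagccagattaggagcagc
Dusp6 (chr10:99262981-99263280, plus strand): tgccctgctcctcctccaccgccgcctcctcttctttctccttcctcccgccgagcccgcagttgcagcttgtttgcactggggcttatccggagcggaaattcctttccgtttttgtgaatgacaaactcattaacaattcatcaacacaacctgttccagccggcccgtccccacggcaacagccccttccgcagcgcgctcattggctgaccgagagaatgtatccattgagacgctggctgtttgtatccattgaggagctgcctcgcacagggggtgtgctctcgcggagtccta
Maff (chr15:79347270-79347569, plus strand): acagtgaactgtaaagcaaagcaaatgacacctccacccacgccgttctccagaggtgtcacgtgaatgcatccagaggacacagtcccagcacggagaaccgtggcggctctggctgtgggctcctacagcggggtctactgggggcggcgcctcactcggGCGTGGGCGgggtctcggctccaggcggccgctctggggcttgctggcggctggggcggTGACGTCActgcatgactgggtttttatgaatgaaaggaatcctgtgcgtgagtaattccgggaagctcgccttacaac
Nr4a1 (chr15:101266596-101266895, plus strand): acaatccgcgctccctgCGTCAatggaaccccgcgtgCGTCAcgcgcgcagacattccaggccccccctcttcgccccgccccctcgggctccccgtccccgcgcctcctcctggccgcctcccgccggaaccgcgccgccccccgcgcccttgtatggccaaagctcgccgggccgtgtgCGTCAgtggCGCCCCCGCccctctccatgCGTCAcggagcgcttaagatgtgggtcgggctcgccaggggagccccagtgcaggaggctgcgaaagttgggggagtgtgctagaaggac

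The core TGACG was found in the windows of 16 of the 25 genes (64%), against 23% of the 27025 genes with a window. The full palindrome TGACGTCA was found in 3 (12%, against 2.03% of all genes), in Btg2, Dusp1 and Maff. TGACNTCA, which includes that palindrome, was found in 5 (20%, against 10.0%), among them Jun, whose promoter is known for its AP-1 sites. The match began 45 bases before the start in Jun, 143 in Dusp1 and 29 in the Maff window shown. The EGR element GCGNGGGCG was found in 11 of the 25 (44%, against 6.27%), and the GC box GGGCGG in 21 (84%, against 38.2%). The EGR element and the GC box share letters, so their counts are not independent. Their matches overlap in Fosb, Maff and Nr4a1, among others, but not in Btg2, Gadd45b and Zfp36. CArG boxes were found in Dusp5, Egr2 and Zfp36 (12%, against 1.81%), the AP-1 form TGANTCA in 0 of 25 (against 8.97%) and TATAAA in 4 (16%, against 15.7%). Genes with several windows, such as Egr2 and Maff, were counted if any window held the motif. The 27025 genes were not limited to those on the arrays or matched to the members for base composition. The part of base composition in these shares was not tested. These are matches of letters in a short window and do not show binding. Sites farther from the start, or in members without a window, were not searched, so a motif not found here may still be present.

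As a set, the immediate early genes lay slightly above wild_type in hIAPP_Tg islets, and no single gene passed the test corrected over all probe sets. Of the 32 genes, 26 had a difference above 0, 3 below and 3 at 0, with a median of 0.27 (a 1.20-fold difference) and a range from -0.10 to 0.67. Over all genes tested 48% had a difference above 0 and the median was 0. Of the members, 0 passed an adjusted p of 0.05 (limma, Benjamini-Hochberg over all probe sets), where the background was 0.0289% of probe sets. The smallest adjusted p was 0.296, for Jun. At an unadjusted p under 0.05 in the same limma fit, 9 of 32 members (28.1%) were higher, against a background of 5.02% of genes, and 0 were lower, against 3.45%. The 3 values of each genotype did not overlap for 8 of 32 (25%), all higher in hIAPP_Tg islets, against 4.49% of genes higher and 3.22% lower without overlap. The members share arrays and respond to the same signals, so they are not independent of each other.

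**Figure D1:**
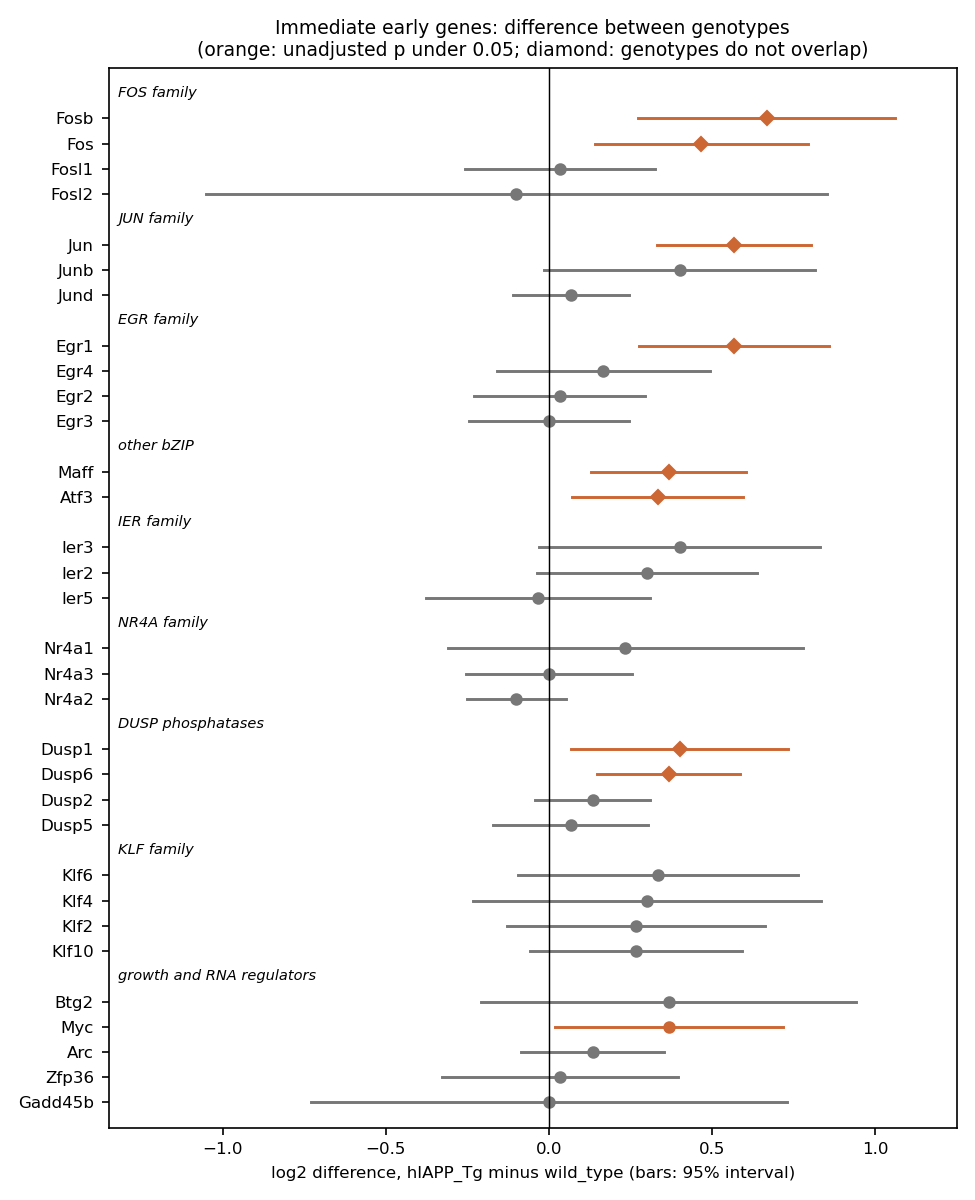
Log2 difference (hIAPP_Tg minus wild_type) of each of the 32 genes on its brightest probe set, by role, with the 95% interval of the limma fit. Orange marks the 9 genes with an unadjusted p under 0.05 and diamonds the 8 whose genotypes did not overlap; all 9 lie to the right of 0.

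The FOS family supplies the partners that dimerize with JUN proteins to form AP-1. Fos, the founding member, read 11.6, 11.7 and 11.2 on the wild_type arrays and 11.9, 12.0 and 12.0 on the hIAPP_Tg arrays. The lowest hIAPP_Tg value lay above the highest wild_type value, and wild_type replicate 3 was the lowest array. The means were 11.50 ± 0.26 and 11.97 ± 0.058 (SD, n = 3 each), a difference of 0.47 (SE 0.13, 95% interval 0.14 to 0.79, limma adjusted p = 0.552), or 1.38-fold.

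Fosb, a relative with a stable truncated form known from repeated stimulation, read 5.4, 5.5 and 5.1 against 5.8, 6.3 and 5.9. The groups did not overlap, and the wild_type readings lay under the median of the whole table, 5.7, where a signal above background cannot be taken for granted. The difference was 0.67 (SE 0.16, 95% interval 0.27 to 1.06, limma adjusted p = 0.502), the largest of the 32 genes. Fosl1 and Fosl2, the FRA proteins that appear later and last longer, had overlapping groups. Fosl1 differed by 0.033 (95% interval -0.26 to 0.33) at a mean level of 5.65, also under the table median. Fosl2 differed by -0.10 with a wide interval of -1.05 to 0.85, which contains the Fos difference. Its readings spread from 6.3 to 7.7 within wild_type alone, and without wild_type replicate 2 the difference was 0.22.

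The JUN proteins are the obligate partners in AP-1. Jun, the main transactivating form, read 9.3, 9.3 and 9.0 in wild_type and 9.8, 9.7 and 9.8 in hIAPP_Tg islets. The hIAPP_Tg arrays lay within 0.1 of each other and clear of all wild_type arrays. Its difference of 0.57 (SE 0.098, 95% interval 0.33 to 0.80, limma adjusted p = 0.296), or 1.48-fold, had the smallest p of all members and ranked 150 by p among all probe sets tested. The dimmer Jun probe set differed by only 0.13 (95% interval -0.10 to 0.37), at 8.5, 8.3 and 8.4 against 8.7, 8.5 and 8.4, with overlap, and with both averaged the difference was 0.35.

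Junb, which can restrain JUN, read 6.5, 6.1 and 5.8 in wild_type and 6.5, 6.6 and 6.5 in hIAPP_Tg islets. Wild_type replicate 1 reached the hIAPP_Tg level, so the groups touched, and the difference was 0.40 (95% interval -0.015 to 0.81, limma adjusted p = 0.632). Jund, the least inducible JUN gene in most cells, read 9.1 to 9.3 on all 6 arrays and differed by 0.067 (95% interval -0.11 to 0.24). Its second probe set, at 4.5 to 4.7, also differed by 0.067.

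EGR genes encode zinc-finger factors induced through serum response factor. Egr1, whose product binds the GCGNGGGCG element, read 10.8, 10.8 and 10.4 against 11.3, 11.2 and 11.2. As for Fos and Jun, the groups did not overlap and wild_type replicate 3 was lowest. The difference was 0.57 (SE 0.12, 95% interval 0.27 to 0.86, limma adjusted p = 0.419), a 1.48-fold higher level in hIAPP_Tg islets. The other EGR genes did not separate the genotypes: Egr4 differed by 0.17 (95% interval -0.16 to 0.49), Egr2 by 0.033 and Egr3 by 0. Egr2 lay at a mean of 4.52, under the table median.

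Atf3 and Maff encode further bZIP factors. Atf3, a stress-induced repressor of the CREB family, read 5.8, 5.5 and 5.8 against 6.1, 5.9 and 6.1, without overlap, close to the table median. Its difference was 0.33 (SE 0.11, 95% interval 0.071 to 0.60, limma adjusted p = 0.557). Maff, a small MAF protein that lacks an activation domain, read 6.6, 6.8 and 6.5 against 6.9, 7.1 and 7.0, also without overlap. It differed by 0.37 (SE 0.098, 95% interval 0.13 to 0.60, limma adjusted p = 0.503). For both Atf3 and Maff the groups were separated by a single rounding step of 0.1.

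**Figure D2:**
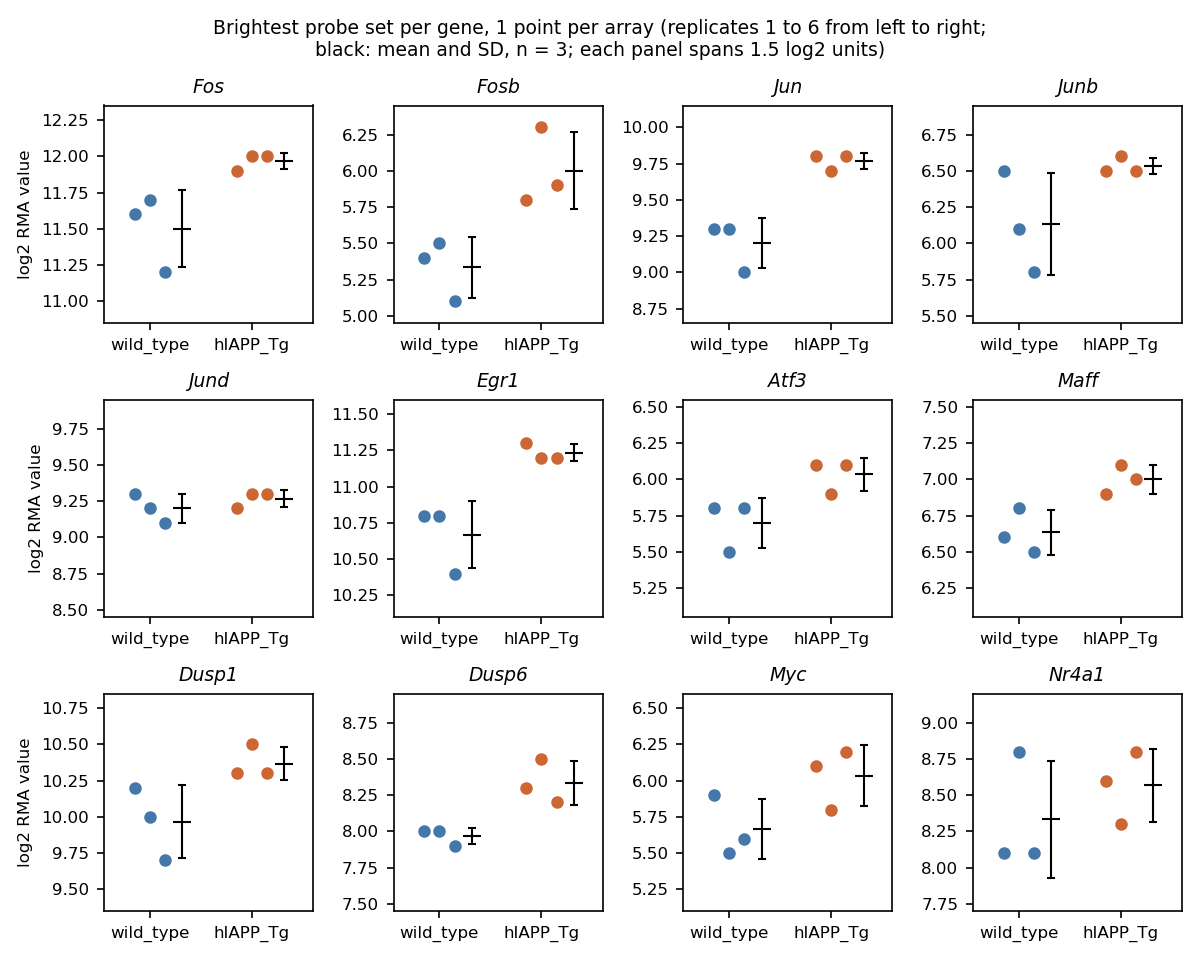
Log2 RMA value on each array (points, replicates 1 to 6 from left to right) with the mean and SD of each genotype (n = 3) for 12 genes; every panel spans 1.5 log2 units. Fos, Fosb, Jun, Egr1, Atf3, Maff, Dusp1 and Dusp6 show no overlap between the genotypes, while Junb, Jund, Myc and Nr4a1 do overlap.

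DUSP genes encode phosphatases that switch MAP kinases off. Dusp1, which acts on p38, JNK and ERK in the nucleus, read 10.2, 10.0 and 9.7 in wild_type and 10.3, 10.5 and 10.3 in hIAPP_Tg islets. The groups were separated by a single rounding step of 0.1. The difference was 0.40 (SE 0.14, 95% interval 0.068 to 0.73, limma adjusted p = 0.564), and the unadjusted p stayed under 0.05 in only 1 of the 6 fits that left out an array. Dusp6, the cytoplasmic phosphatase specific for ERK, read 8.0, 8.0 and 7.9 against 8.3, 8.5 and 8.2, without overlap. Its difference of 0.37 (SE 0.091, 95% interval 0.15 to 0.59, limma adjusted p = 0.503), or 1.29-fold, stayed under an unadjusted p of 0.05 in all 6 such fits. Dusp2 (0.13, 95% interval -0.044 to 0.31) and Dusp5 (0.067, 95% interval -0.17 to 0.30) had overlapping groups.

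The NR4A genes encode orphan nuclear receptors that calcium and cyclic AMP induce strongly in endocrine cells. Nr4a1 read 8.1, 8.8 and 8.1 in wild_type and 8.6, 8.3 and 8.8 in hIAPP_Tg islets. Wild_type replicate 2 matched the highest hIAPP_Tg array, and the difference of 0.23 had an interval from -0.31 to 0.78 (limma adjusted p = 0.809). Nr4a2 differed by -0.10 on its brightest probe set (95% interval -0.25 to 0.052) and by 0 to 0.23 on its 5 others. Nr4a3 differed by 0 (95% interval -0.25 to 0.25). On the brightest probe sets the intervals of Nr4a2 and Nr4a3 do not reach the difference of 0.57 seen for Jun and Egr1. That of Nr4a1 does. Among the dimmer Nr4a2 probe sets, intervals of -0.25 to 0.71 and -0.65 to 0.78 also reach it, and the others do not. Whether the families differ from each other was not tested.

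The IER genes are named for their induction kinetics. Among them Ier3, a survival factor, differed by 0.40 (95% interval -0.030 to 0.83) and Ier2 by 0.30 (95% interval -0.038 to 0.64). Ier3 read 6.7, 7.4 and 7.0 against 7.3, 7.5 and 7.5, so a single wild_type array reached into the hIAPP_Tg range. Ier5 went the other way by -0.033, and its other probe sets by -0.10 and -0.033.

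The 4 KLF genes, zinc-finger factors of growth arrest and differentiation, all had differences above 0, between 0.27 and 0.33, and none passed an unadjusted p of 0.05. Klf6 has 5 probe sets, all above 0: the brightest differed by 0.33 (95% interval -0.096 to 0.76), and a dimmer probe set read 5.9, 5.7 and 5.7 against 6.1, 6.5 and 6.3, without overlap, a difference of 0.53 (95% interval 0.25 to 0.82). A further Klf6 probe set near the floor, at a mean of 3.60, differed by 0.20. For Klf4 the probe sets differed by 0.30 and 0.23, Klf10 differed by 0.27 (95% interval -0.059 to 0.59) and Klf2, a flow-responsive factor of endothelium, by 0.27 (95% interval -0.13 to 0.66). The KLF score was highest on hIAPP_Tg replicate 5, at 7.50, against 7.05 and 7.20 on the other hIAPP_Tg arrays and 6.88 to 7.05 on the wild_type arrays, so its groups touched.

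The remaining members regulate growth or RNA. Myc, the growth-promoting bHLH factor, read 5.9, 5.5 and 5.6 against 6.1, 5.8 and 6.2, near the table median and with overlap. It differed by 0.37 (SE 0.14, 95% interval 0.017 to 0.72, limma adjusted p = 0.632). Btg2, an antiproliferative partner of the mRNA deadenylase, differed by 0.37 (95% interval -0.21 to 0.94) on its brightest probe set and by 0 on the other, with wild_type replicate 1 at 11.5 above every hIAPP_Tg array. Zfp36, which binds AU-rich elements and hastens mRNA decay, differed by 0.033 (95% interval -0.33 to 0.40). Arc, known as a neuronal activity gene, differed by 0.13 (95% interval -0.086 to 0.35).

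Gadd45b, a stress sensor upstream of p38 and JNK, differed by 0 on its brightest probe set, but the wild_type arrays spread widely at 8.8, 7.6 and 7.8 against 8.1, 8.1 and 8.0. On its second probe set, at 8.0, 6.7 and 6.5 against 7.6, 7.4 and 7.6, the difference was 0.47 (95% interval -0.46 to 1.39). On both, wild_type replicate 1 stood above all other arrays.

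Genes with several probe sets lay closer to 0 than genes with 1, a difference that was not tested. All 19 genes with a single probe set were above 0, with a median of 0.33. Of these, 8 had an unadjusted p under 0.05 (42.1%, against 5.02% of all genes higher). Of the 13 genes with several, 7 were above 0 on the brightest probe set, with a median of 0.033. Among these 13, 1 (Jun) had an unadjusted p under 0.05 (7.69%, near the same 5.02%). The 23 dimmer probe sets had a median of 0.067, and 11 of them lay at or under the table median of 5.7. Over all 55 probe sets 41 were above 0, 8 below and 6 at 0, 11 were higher at an unadjusted p under 0.05 (20%, against 3.82% of all probe sets) and 0 lower (against 3.51%), with a median of 0.13.

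**Figure D3:**
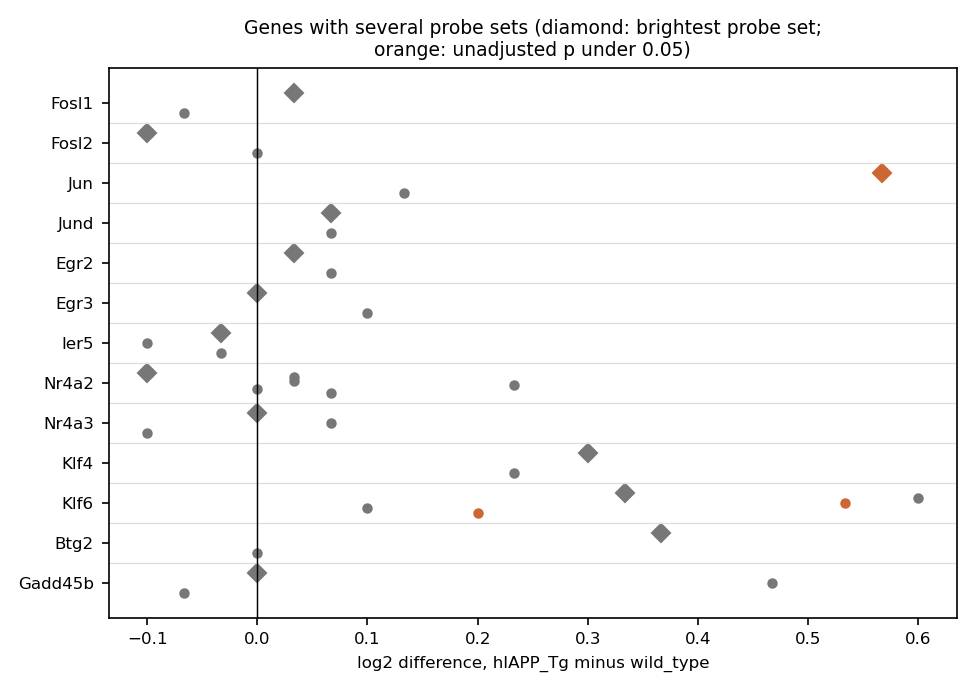
Log2 difference (hIAPP_Tg minus wild_type) of every probe set for the 13 genes with several, the brightest as a diamond and orange for an unadjusted p under 0.05. The probe sets of Klf6 all lie to the right of 0, while those of Jun (0.57 and 0.13), Btg2 (0.37 and 0) and Gadd45b (0.47, 0 and -0.067) are spread out.

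The module score, the mean log2 value over the 32 genes, was 7.43, 7.45 and 7.30 on the wild_type arrays and 7.59, 7.64 and 7.64 on the hIAPP_Tg arrays. The groups did not overlap, and the score differed by 0.23 between means of 7.39 ± 0.079 and 7.62 ± 0.027 (SD, n = 3 each). By role, the JUN, EGR, DUSP and Atf3 with Maff scores did not overlap either, and the FOS, IER, NR4A, KLF and growth regulator scores did. On each hIAPP_Tg array 24 or 25 of the 32 genes lay above the wild_type mean, against 46% to 53% of all genes on the same arrays. Wild_type replicate 3 held the lowest value alone for 15 of the 32 genes, while this array was lowest alone for 10.1% of all genes. Without it the score difference was 0.19, the median 0.20, and 8 members were higher at an unadjusted p under 0.05, against a background of 3.91%. Without hIAPP_Tg replicate 6 that count was 5, against a background of 4.62%.

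Of the 9 genes, Jun, Egr1, Fosb, Dusp6 and Maff had an unadjusted p under 0.05 in all 6 fits that left out an array. Fos did so in 4 (not without hIAPP_Tg replicate 5 or 6), Atf3 in 4 (not without hIAPP_Tg replicate 4 or 6), Myc in 2 (without wild_type replicate 1 or hIAPP_Tg replicate 5) and Dusp1 in 1 (without wild_type replicate 1). Their differences over these fits were 0.47 to 0.62 for Jun, 0.43 to 0.63 for Egr1, 0.52 to 0.77 for Fosb, 0.28 to 0.43 for Dusp6, 0.30 to 0.45 for Maff, 0.32 to 0.57 for Fos, 0.23 to 0.40 for Atf3, 0.28 to 0.48 for Myc and 0.27 to 0.52 for Dusp1. All of these kept the direction of the full fit.

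Markers of other cell types moved over the same arrays. The mean over the 24 macrophage markers, all measured, was 6.95, 6.93 and 6.81 on the wild_type and 7.77, 7.84 and 7.87 on the hIAPP_Tg arrays, so these groups did not overlap either, and wild_type replicate 3 was again lowest. Of the 24, 22 were above 0 (91.7%, against 48% of all genes) and 18 were higher without overlap between the genotypes (75%, against 4.49%). Cd163, Itgam and Mrc1 lay under the table median of 5.7. The mean over 23 acinar markers was 9.66, 10.87 and 11.23 against 10.70, 8.59 and 9.88; it was highest on wild_type replicate 3 and lowest on hIAPP_Tg replicate 5. With the acinar mean as a covariate the median difference of the immediate early genes was 0.16, the score difference 0.20, and 7 members were higher at an unadjusted p under 0.05 against a background of 4.39%. The 7 were Jun (0.55), Egr1 (0.53), Fosb (0.50), Fos (0.39), Atf3 (0.37), Maff (0.31) and Dusp6 (0.29), and Dusp1 (0.26) and Myc (0.38) were not.

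The macrophage mean differed by 0.93 between the genotypes, with an SD of 0.076 among wild_type and 0.051 among hIAPP_Tg arrays, so macrophage content and genotype cannot be told apart in this design. A fit with that mean as a covariate gave a median of -0.50 and a score difference of -0.55, with standard errors of 0.73 for Jun, 0.92 for Egr1 and 0.74 for Fos against 0.098, 0.12 and 0.13 in the fit without it. Fewer cells of a type and less RNA per cell cannot be told apart in bulk islet RNA, and the cells that carried these transcripts were not identified. The mean over the endothelial and pericyte markers overlapped between the genotypes (7.69 to 7.82 against 7.71 to 7.80), but single markers differed in opposite directions: of 20, 2 were higher and 4 lower at an unadjusted p under 0.05 (10% and 20%, against 5.02% and 3.45% of all genes). The pericyte genes Abcc9 (0.57) and Pdgfrb (0.43) were higher and the endothelial genes Tek (-0.33) and Egfl7 (-0.30) lower, each without overlap. They were picked by their p, and over the 20 markers 9 differences lay above 0, 7 below and 4 at 0. The direction of each cell type as a whole was not tested. The part of these genes in the differences of the immediate early genes was not tested either. The mean over the beta-cell markers also overlapped (11.88 to 11.99 against 11.73 to 11.89).

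**Figure D4:**
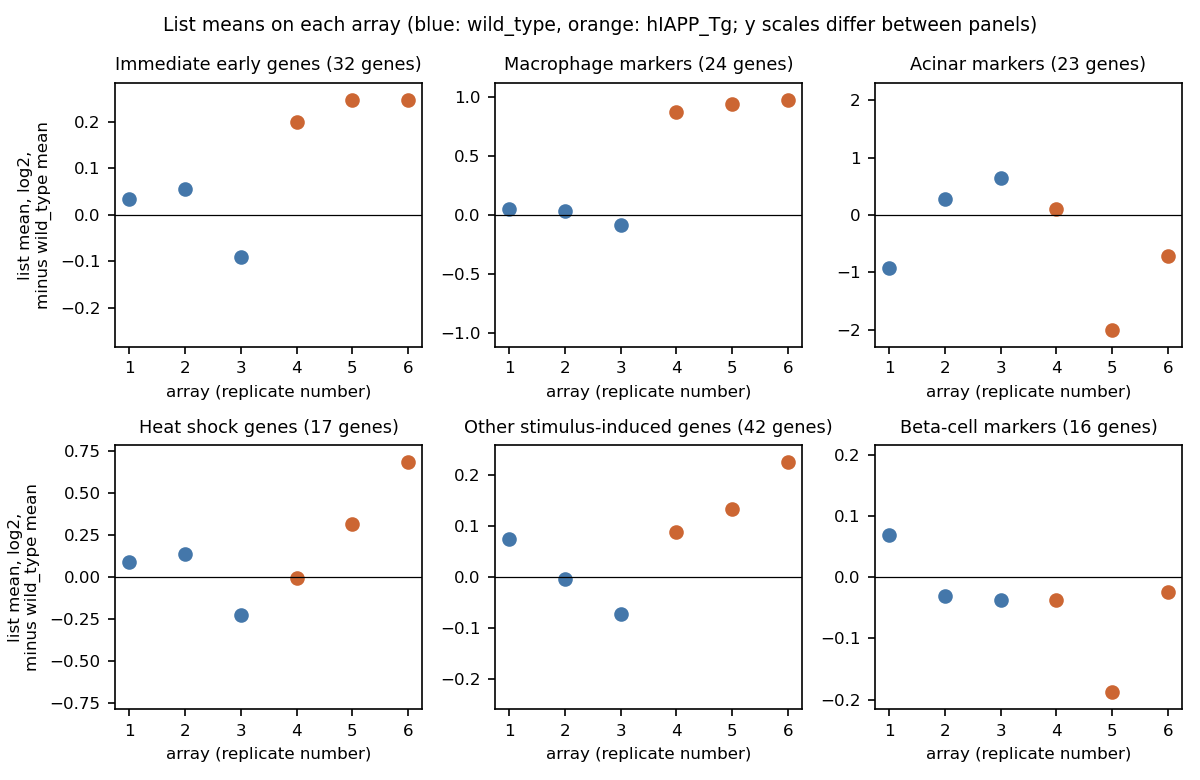
Mean log2 value of 6 gene lists on each array, minus the mean of the wild_type arrays (blue, replicates 1 to 3; orange, hIAPP_Tg replicates 4 to 6; the y scales differ). The immediate early genes, the macrophage markers and the other stimulus-induced genes lie higher on all 3 hIAPP_Tg arrays, while acinar, heat shock and beta-cell lists overlap.

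Genes that act with the immediate early response were taken from further lists. Of 35 genes of upstream signalling (serum response factor and its partners, CREB and its coactivators, and the ERK, JNK and p38 kinases) 23 were measured. None was higher at an unadjusted p under 0.05 and 3 were lower (13%, against 3.45% of all genes), with a median of 0. Those 3 were Mapk10, the JNK isoform of neurons and endocrine cells (10.2, 10.5 and 10.3 against 9.6, 10.0 and 9.8, a difference of -0.53), the CREB coactivator gene Crtc2 (-0.20) and the histone kinase gene Rps6ka5 (-0.43). Mapk10 had an adjusted p of 0.478 in limma.

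Of 16 further feedback inhibitors of MAP kinase signalling, all measured, 2 were higher at an unadjusted p under 0.05 (12.5%, against 5.02% of all genes) and none lower (against 3.45%). Errfi1, an EGF receptor inhibitor, read 8.0, 7.9 and 7.8 against 8.1, 8.5 and 8.3 (0.40), and Spred1, a RAS pathway inhibitor, differed by 0.20. Both separated the genotypes. The median of this list was 0.05.

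AP-1 partners and related bZIP genes (17 of 19 measured) were spread around 0, with 3 higher and 1 lower at an unadjusted p under 0.05 (17.6% and 5.88%, against 5.02% and 3.45% of all genes) and a median of 0. Cebpb differed by 0.40, without overlap, and Cebpd, its acute-phase relative, read 7.3, 7.3 and 6.5 against 7.5, 8.7 and 8.3 (1.13, limma adjusted p = 0.552). Bach1, a repressor that pairs with small MAF proteins, differed by 0.30. The lower gene was the repressor Nfil3, which read 7.5, 7.5 and 7.4 against 5.6, 5.5 and 6.1, without overlap. Its difference of -1.73 had the smallest p of this list (limma adjusted p = 0.0572).

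Other stimulus-induced genes (42 of 46 measured) had 8 higher and 2 lower at an unadjusted p under 0.05 (19% and 4.76%, against 5.02% and 3.45% of all genes) and a median of 0.067. The 3 with the smallest p were Bhlhe40, a repressor that also acts in the clock (7.2, 7.3 and 7.2 against 8.1, 8.6 and 7.9, a difference of 0.97), Rgs2, an inhibitor of Gq signalling (9.2, 8.0 and 8.1 against 10.3, 9.9 and 9.4, 1.43), and the kinase gene Sgk1 (0.60). Rasd1 (-0.30) and Bdnf (-0.27) were the 2 lower. The list mean was 0.15 higher in hIAPP_Tg islets. Family relatives outside the set, such as further KLF and GADD45 genes (20 of 23 measured), had 1 higher (Klf9, 0.63) and 1 lower (Wt1, -0.20), 5% each against the same shares, with a median of 0.083.

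Heat shock genes (17 of 18 measured) had 15 members above 0 and a median of 0.23, with Hspa1a (1.30) and Hspa1b (1.27) higher at an unadjusted p under 0.05 (11.8%, against 5.02% of all genes); the pair is near-identical, so their signals may not be separate. Their list mean was 9.65, 9.70 and 9.34 on the wild_type and 9.56, 9.88 and 10.25 on the hIAPP_Tg arrays, with overlap, and wild_type replicate 3 was lowest here too. The part of cell makeup, acinar carry-over or the heat shock response in the differences of the immediate early genes was not tested.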

How the data were processed

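RNA of islets from 6 mice, 1 array each, was labelled from 150 ng per the labels' protocols. The authors deposited log2 values. The submitters' processing notes name RMA and affy, without versions. The values span 2.9 to 15.1 in steps of 0.1, with a median of 5.7 on each array. RMA equalizes probe intensities between arrays before it summarizes probe sets, so the summarized values can still differ in distribution. Precision is limited by having 3 arrays per genotype.

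The 64 control probe sets were left out. Gene names came from the platform annotation, checked by Entrez number against RefSeq (GRCm38.p6): 34945 probe sets had 1 symbol, 932 several and 9160 none here. The 45037 probe sets were tested with limma 3.58.1 in R 4.3.3 (lmFit, eBayes, two-sided, no covariate, Benjamini-Hochberg). Replicate numbers are not shared between genotypes. The fit was tested on simulated data. Python 3.11.15 with matplotlib 3.10.9 drew the figures.

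The members and lists were chosen with earlier results of these data known, so no list was tested. All 32 members were named. Values per array were given for members with an unadjusted p under 0.05 or no overlap, for Fos, Jun, Egr1 and Nr4a1, and for Junb, Ier3, Klf6 and Gadd45b, chosen after their values were seen. Of other lists, up to 3 genes per direction with the smallest unadjusted p were eligible. Listed genes without a probe set of 1 symbol are not analysed here. The 18 alternatives changed the normalization, the filter, the variance prior, array weights, the choice of probe sets or a covariate, or left out an array.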

Additional observations from a re-analysis of the deposited data

How the results depend on the processing

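Every alternative other than the macrophage covariate kept the median and the score difference above 0. In these, 0 members were lower at an unadjusted p under 0.05 (backgrounds of 2.61% to 4.82% of genes). Some of them could not have moved the median or the score. Centring each array on its median repeated the full fit, since every array had a median of 5.7. The intensity trend, the robust prior and the fit without moderation change only the variance. They left the median at 0.27 and the score difference at 0.23 by construction. Over the 6 fits without an array, 1 to 4 probe sets passed the adjusted threshold, 5 to 12 members were higher at an unadjusted p under 0.05 (backgrounds of 3.91% to 7.13% of genes), the median ran from 0.17 to 0.30 and the score difference from 0.19 to 0.26. In place of 13, the probe sets past the threshold were 30 with quantile normalization and 23 with values over 7 on at least 3 arrays. They were 51 with a robust prior, 128 without moderation and 26 with array weights. Without probe sets whose ID ends in _s_at, _x_at or _a_at, which left 29 members, they were 7. They were 3 with the acinar covariate and 0 with the macrophage covariate, and 0 members were among them in each case. The members higher at an unadjusted p under 0.05 were 5 with the filter over 7, which kept 19 members (background 6.90%). With the acinar covariate the median was 0.16.

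With the macrophage covariate 0 members were higher at an unadjusted p under 0.05 (background 1.248% of genes) and 1, Fos, was lower (background 2.226%). The median was -0.50 and the score difference -0.55. The differences were -1.94 for Fos, -1.56 for Fosb, -0.79 for Jun, -1.03 for Egr1, -1.78 for Dusp1, -0.028 for Dusp6, -0.35 for Myc and -0.86 for Maff, while Atf3 kept its direction at 1.03 (SE 0.99). The standard errors of these 9 were at least 0.73, since the covariate lies close to genotype. Of 525 pairs of a member and another alternative, 474 had no reversal of sign and stayed on their side of the unadjusted threshold. Another 18 lost the call, 17 gained it and 16, none called, changed sign. A difference of 0 in either fit was not counted as a change of sign. Egr3, Nr4a3 and Gadd45b, at 0 in the full fit, could therefore not be counted as changing sign. Pairs with median centring repeated the full fit and could only stay the same. With the intensity trend, the robust prior, no moderation or a filter on level, the differences equalled those of the full fit, so no sign could change. The 474 thus include pairs whose outcome was fixed in advance. No reading from a dim probe set is known to be above background, since no detection call was used here.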
